A study of Homo sapiens with 9 samples.

Results

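The regions described here are GFP peaks of parental A498 cells that were not called in parental 786-O cells. Both are established human cell lines of clear cell renal cell carcinoma, and parental means that the cells carry no GFP tag, so the peaks are background of the GFP antibody. The members were chosen from the 2 parental lists as peaks of parental A498 that overlap no parental 786-O peak by 1 bp or more, leaving out the 14 bins of 1 Mb that held 10 or more peaks in each of these lists. Of 1563 parental A498 peaks, 830 overlapped no parental 786-O peak (53.1%, as the rule fixes), 193 of these lay in the bins left out, and 637 remained (40.8% of the list). They are called A498-only peaks below. They are 637 of the 52875 peaks of all 5 lists.

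Chromatin immunoprecipitation followed by sequencing (ChIP-seq) with a GFP antibody was carried out in A498 cells with an eGFP knock-in at ZNF395, in 786-O cells with the same knock-in, and in both parental lines, and a c-Myc antibody was used in parental 786-O cells. The tag was placed downstream of the ZNF395 gene by electroporating a guide plasmid and a donor plasmid. The labels do not say whether single clones or pools were used. With 1 library per group there is no replicate to check a difference against, no p-value is given, and every interval covers counting error only and treats peaks as independent. Labels conflict in 2 places: the cell line entry of the libraries titled A498 reads 786-O, and the target entry of the library titled MYC reads P300. Titles were followed here.

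In cells without GFP the antibody has no tagged protein to bind. Peaks called there are commonly seen at highly accessible chromatin and at repeated sequence that is present in more copies in the cells than in the reference genome, where reads pile up. ZNF395 is a zinc finger protein that acts in transcription, and MYC is a transcription factor that binds largely at active promoters and enhancers. A background peak that returns in the tagged library of the same line is one that subtraction of the parental list removes from the tagged list.

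Few A498-only peaks were found again in another library. Of the 637, 77 (12.1%, 95% interval 9.66 to 14.9) overlapped a peak of tagged A498 cells, against 35.1% of all parental A498 peaks. A peak of tagged 786-O cells lay at 142 (22.3%, 19.1 to 25.7), against 51.9% of all parental A498 peaks, and a MYC peak at 66 (10.4%, 8.10 to 13.0), against 15.9%. In none of the 3 lists were 455 (71.4%, 67.7 to 74.9), against 42.6% of all parental A498 peaks.

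The nearest comparison is with the 439 parental A498 peaks that were called in parental 786-O too, outside the same bins. A498-only peaks had a tagged A498 peak in 12.1% of cases and the peaks common to both parental lines in 64.0% (59.3 to 68.5), a difference of -51.9 percentage points (Newcombe 95% interval -56.8 to -46.6). The tagged A498 list was not used by the rule. Common peaks were, however, chosen for recurring in another library of the same antibody, which may favour their return here too. For tagged 786-O the shares were 22.3% of A498-only and 88.2% of common peaks, a difference of -65.9 points (-69.9 to -61.1). That list is of the same line and antibody as the parental 786-O list by which the peaks were divided, so this difference is not independent of the rule. For MYC the shares were 10.4% of A498-only and 40.1% of common peaks, a difference of -29.7 points (-34.8 to -24.5), and the MYC list was called against the same control library as the parental 786-O list. The 487 peaks of the bins left out lay in between for the tagged lists, with 39.2% at tagged A498 and 57.9% at tagged 786-O peaks, and below both other classes for MYC, with 1.23%.

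**Figure D1:**
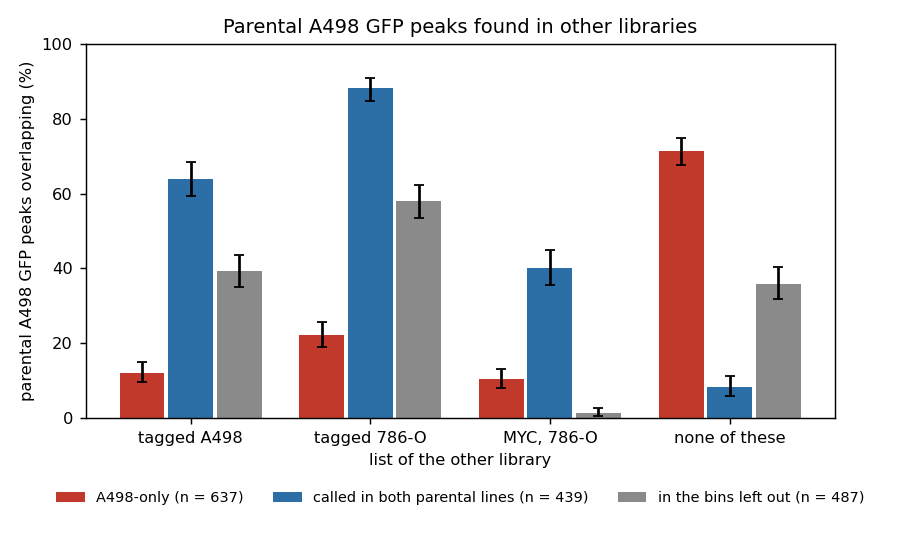
Share of parental A498 GFP peaks (%, bars) that overlap a peak of tagged A498, of tagged 786-O, of MYC or none of these, for 637 A498-only peaks, 439 peaks called in both parental lines and 487 peaks of the bins left out, with 95% binomial intervals. A498-only peaks have the lowest bar for both tagged lists (12.1% and 22.3%) and the highest for none (71.4%).

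The tagged 786-O share of the A498-only peaks was above the tagged A498 share, although it is the tagged A498 list that is of the same line as these peaks. The tagged 786-O list was also the longer, with 20034 peaks against 7718 in tagged A498. With the tagged and MYC lists each limited to their 7718 highest peaks, the tagged 786-O share was no longer the higher. It was 10.2% (7.96 to 12.8), against 12.1% (9.66 to 14.9) for tagged A498, with overlapping intervals.

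The A498-only peaks were weaker and narrower than the common ones. The rule favours this, since a narrow or weak peak is less likely to overlap a peak of another list. How much the rule adds was not tested. Their deposited score, read as the −log10 of a p or q, had a median of 7.35 (quartiles 4.04 and 15.8), and that of the common peaks a median of 15.0 (6.83 and 33.2). Their median width was 138 bp and that of the common peaks 197 bp, and 375 of the A498-only peaks (58.9%) were at most 150 bp wide, against 27.3% of the common peaks. Only 6 A498-only peaks were among the 100 highest of the parental A498 list, which held 45 common peaks and 49 peaks of the bins left out.

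The lower overlap was also seen within classes of score, with the peaks divided by the same rule. The parental A498 list was divided by score into 4 classes of 25% each. In the lowest class, with scores up to 5.955, 8.92% (5.80 to 13.0) of 269 A498-only and 68.5% (57.8 to 78.0) of 89 common peaks overlapped tagged A498. In the highest class, with scores from 28.7, the shares were 19.3% (10.0 to 31.9) of 57 A498-only and 65.1% (56.2 to 73.3) of 129 common peaks. The intervals of both classes were apart in all 4 classes for tagged A498 and for tagged 786-O. By width, A498-only peaks of at most 120 bp overlapped tagged A498 in 4.62% of 173 cases, against 41.7% (22.1 to 63.4) of only 24 common peaks, and those over 250 bp in 30.7% (20.5 to 42.4) of 75 cases, against 77.7% of 166 common peaks.

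MYC overlap was rarer among the stronger peaks of both classes. In the 2 lower classes 12.6% and 15.6% of A498-only peaks had a MYC peak, and in the 2 upper classes 1.6% (0.194 to 5.66) and 1.75% (0.0444 to 9.39). Common peaks had one in 56.2% and 59.7% of cases in the lower classes and in 32.0% and 16.3% in the upper ones. The median score was 5.90 for A498-only peaks at MYC sites and 8.01 for the others, and 20 of 66 (30.3%, 19.6 to 42.9) lay above the median of all A498-only peaks. At tagged A498 peaks 57.1% (45.4 to 68.4) and at tagged 786-O peaks 52.8% (44.3 to 61.2) lay above it.

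**Figure D2:**
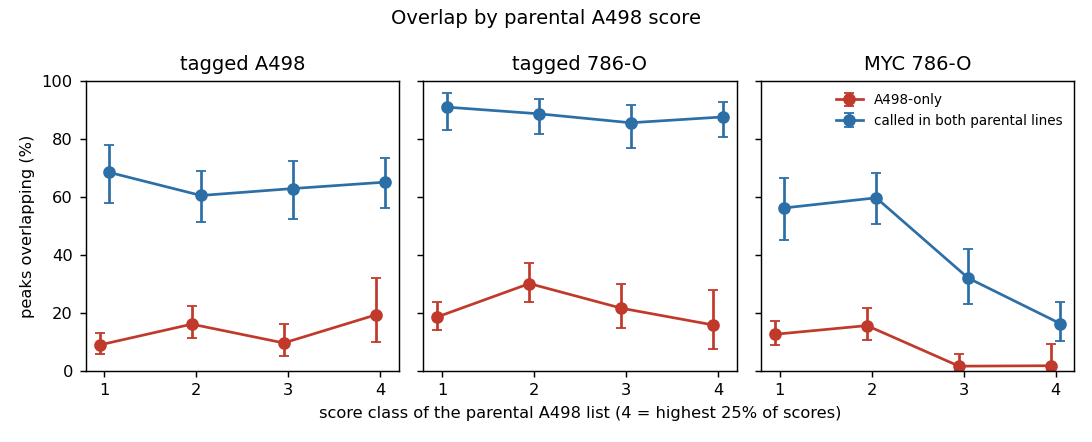
Share of peaks (%) overlapping tagged A498, tagged 786-O and MYC peaks in each of 4 score classes of the parental A498 list (25% each), for A498-only and common peaks, with 95% binomial intervals. The A498-only points lie below the common points in all 4 score classes and for all 3 lists, and both classes have fewer MYC peaks in the upper classes.

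The A498-only peaks fall into combinations of the 3 lists. All 3 lists had a peak at 23 of them (3.61%), with a median score of 5.88. Both tagged lists without MYC had 21 (3.30%, median score 11.0), tagged A498 alone 31 (4.87%, median 12.9), tagged 786-O alone 64 (10.0%, median 11.6) and tagged 786-O with MYC 34 (5.34%, median 5.77). MYC alone had 7 and tagged A498 with MYC 2. Of the 77 at tagged A498 peaks 57.1% also had a tagged 786-O peak, and of the 142 at tagged 786-O peaks 31.0% also had a tagged A498 peak. Among common peaks these shares were 95% and 69.0%. Most MYC overlap was at sites tagged in 786-O, in both classes. A tagged 786-O peak lay at 57 of the 66 A498-only peaks with MYC and at 172 of the 176 common peaks with MYC.

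The highest A498-only peak lay on chromosome 17 at 56756528 to 56757141 (hg19), with a parental A498 score of 119.6 and rank 9 in that list. Tagged A498 cells had a peak there with a score of 20.6 and rank 455, and tagged 786-O and MYC had none. It is the third of a row of strong parental A498 peaks. The other two, at 56708726 and 56736196, scored 142.7 and 137.9 (ranks 2 and 3) and were called in parental 786-O with scores of 48.9 and 44.77, in tagged A498 with 18.93 and 31.87 and in tagged 786-O with 14.39 and 20.53. Parental 786-O cells thus had peaks at the neighbours 19.8 kb and more away, and none at the third site. A weaker A498-only peak at 56769914 (score 12.98) lay 13.4 kb further on and was in no other list.

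The next A498-only peak by score was on chromosome 1 at 144534005 (score 72.95). Below it were chromosome 3 at 90492287 (57.04) and chromosome 2 at 121832566 (55.14), and then chromosome 19 at 24614333 (51.46) and chromosome 5 at 49410185 (50.32). Those on chromosomes 1 and 2 had a tagged A498 peak, with scores of 8.022 and 14.57 (ranks 2166 and 825 of 7718). Those on chromosomes 3, 19 and 5 were in no other list. The rest of the 10 highest were an unlocalized contig of chromosome 1 (score 49.35), chromosome Y at 9909055 (49.13), chromosome 10 at 99292318 (48.58) and chromosome 7 at 61978427 (46.59). Of these only the last had a partner, a tagged 786-O peak with a score of 25.21. None of the 10 had a MYC peak. The nearest parental 786-O peak was 4550 kb away from the site on chromosome 3 and 7.88 kb from that on chromosome 7.

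A498-only peaks called in all 3 other lists were led by chromosome 5 at 149737601 to 149737802. It scored 33.23 in parental A498, 25.5 in tagged A498, 56.69 in tagged 786-O and 56.75 in MYC. It was followed by chromosome 2 at 206550548, with 10.4 in parental A498, 11.57 in tagged A498, 62.11 in tagged 786-O and 122.3 in MYC. Next came chromosome 16 at 81040771 (parental A498 score 9.442), then a site on chromosome 4 at 169753275 (8.326) and another on chromosome 2 at 200775809 (7.901). Sizes of scores depend on each library's depth and control and are not compared between lists. By rank, the tagged 786-O peaks on chromosome 16 and on chromosome 2 at 200775809 stood at 581 and 577 of 20034, while the parental A498 peaks held ranks of 983 and 1056 of 1563.

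At sites of both tagged lists without MYC, the leading A498-only peaks were a pair on chromosome Y at 10025135 and 10019229 (parental A498 scores 43.32 and 36.4) and one each on chromosome 18 at 111307 (33.31), on chromosome 19 at 24184895 (20.47) and on chromosome 1 at 121354259 (17.22). The 5 tagged A498 peaks there had ranks of 152, 606, 419, 335 and 2065. The best tagged A498 rank of any A498-only peak was 84, on chromosome 21 at 9696766 (parental A498 score 46.31, tagged A498 score 50.4). It was followed by chromosome 6 at 30708897 (tagged A498 rank 100), then by chromosome 1 at 143282583 (rank 121), by a site on chromosome 19 at 54371601 (rank 122) and by one on chromosome 10 at 135491022 (rank 129). All 5 lacked a tagged 786-O peak, and the nearest lay 0.345 to 9.54 kb away.

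The strongest tagged 786-O peaks at A498-only sites were on chromosome 3, where 2 weak parental A498 peaks lay 4.99 kb apart. The first, at 52436267 to 52436388, scored 4.043 in parental A498 (rank 1369) and lay within a tagged 786-O peak of score 232.4 and rank 19. The second, at 52441253 to 52441459, scored 5.317 and had a tagged 786-O peak of score 107.3 and rank 270. Neither had a peak in tagged A498, where the nearest lay 124 and 129 kb away, nor in MYC. No parental 786-O peak lay within 1780 kb of them. The third was chromosome 2 at 178128113 (parental A498 score 6.284), with a tagged 786-O rank of 382, a tagged A498 rank of 2126 and a MYC rank of 927.

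Among the sites of tagged 786-O without tagged A498, those of highest parental A498 score were a pair on chromosome 7 at 61978427 and 61979239 and single sites at 10032 on chromosome 18, at 121351902 on chromosome 1 and at 26318450 on chromosome 20. They had parental A498 scores of 31.21 to 46.59 and tagged 786-O ranks of 2571 to 9165. The peak on chromosome 18 lies at the very start of the assembled chromosome. The 7 A498-only peaks with MYC and no tagged peak were all of modest score, from chromosome 1 at 202311138 (12.4) and 150208656 (9.762) down. The peak on chromosome 16 at 31192019 had a MYC peak of score 146.3 and abutted a tagged 786-O peak without overlapping it. The highest MYC peak of the whole list, which scored 409.9 on chromosome 20 at 17948747 to 17950211, held an A498-only peak of the narrowest width, 112 bp at 17949665, with a score of 6.465. Tagged 786-O had a peak there of rank 6623. This site was chosen after its values were seen.

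The tagged A498 peaks that overlap A498-only peaks were mostly in the upper part of their list. Their median rank was 1652 of 7718, at 21.4% of the list, and 59 of the 77 (76.6%) were in its upper 50%. Those at common peaks had a median at 12.0% of the list. The tagged 786-O peaks at A498-only sites had a median at 43.0% of their list, against 25.4% at common sites, and the MYC peaks a median at 34.3%, against 31.8%. Across the 77 sites, parental and tagged A498 scores had a Spearman's rho of 0.49. Across the 142 tagged 786-O sites rho was -0.056 and across the 66 MYC sites 0.0049. These are descriptions across peaks of single libraries.

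**Figure D3:**
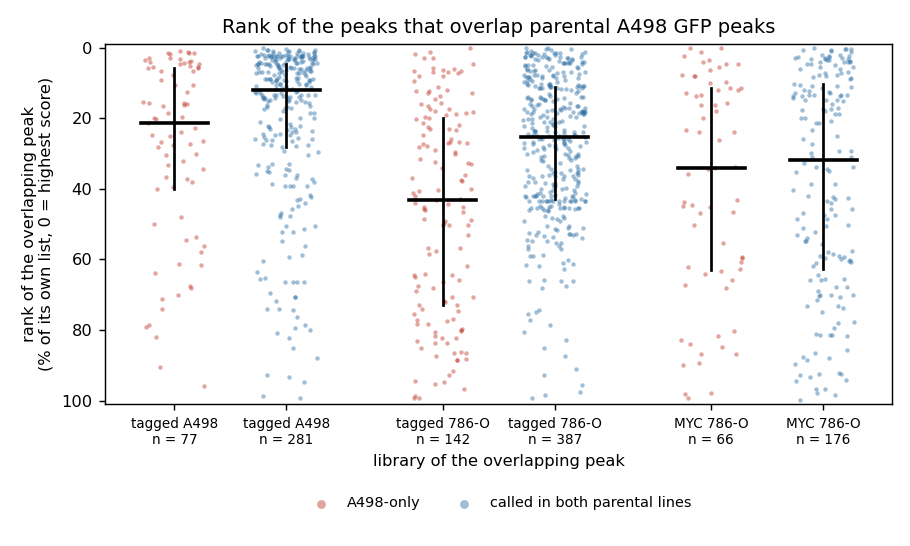
Rank of each peak that overlaps a parental A498 peak, as a percentage of its own list (0 = highest score), for A498-only and common peaks, with the median (wide bar) and quartiles (vertical bar). Partners of A498-only peaks have medians of 21.4% in tagged A498, 43.0% in tagged 786-O and 34.3% in MYC.

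Subtraction of the parental list removes 535 tagged A498 peaks, and 77 of these (14.4%) lie at A498-only peaks. In 786-O, 143 tagged peaks lie at A498-only sites, and 129 of them overlap no parental 786-O peak. Subtraction of the parental list of their own line leaves these in. The rule largely sets this number, since A498-only peaks were chosen for overlapping no parental 786-O peak.

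Many A498-only peaks lay near large stretches of a chromosome without any peak. On each of 24 chromosomes the longest stretch free of peaks in all 5 lists was taken, which spans 3.00 to 30.0 Mb. On chromosome 1 it runs from 121.485433 to 142.535529 Mb, and on chromosomes 13, 14, 15, 21 and 22 from the start of the chromosome. On chromosome 4 it runs from 178.363697 to 183.065116 Mb and on chromosome 11 from 96.123284 to 100.55778 Mb. The stretches are thus not known to be the same kind of region on all chromosomes. Chromosomes 3, 6, 8, 11, 13, 18 and X had no A498-only peak within 2 Mb of theirs. No hg19 map of centromeres or repeats was used, and the measure was chosen after the data were seen. Within 2 Mb of such a stretch lay 168 of the 637 A498-only peaks (26.4%, 23 to 30.0), against 5.44% (4.95 to 5.97) of tagged A498 peaks, 2.98% of tagged 786-O peaks and 1.86% of MYC peaks. The share of the common peaks was 15.0% (11.8 to 18.7), a difference of 11.3 points (6.44 to 16), but the bins left out include some at the ends of a stretch. With no bin left out, the difference was 1.54 points (-2.81 to 5.86), with 26.5% of 830 A498-only and 25% of 733 common peaks near a stretch. Some A498-only peaks (15 in all) themselves end a stretch, which places them near it by construction. Only 1 common peak does so, so this adds more to the A498-only share than to the common share.

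Position went with score and with MYC. A498-only peaks within 2 Mb of a stretch had a median score of 15.3 (quartiles 7.64 and 22.9), against 5.96 (3.83 and 11.5) elsewhere, where 14 peaks on contigs, which have no stretch, are included. A MYC peak lay at 1 of the 168 (0.595%, 0.0151 to 3.27) and at 65 of the 469 elsewhere (13.9%, 10.9 to 17.3). Tagged A498 peaks lay at 7.74% (4.18 to 12.9) near a stretch and at 13.6% (10.7 to 17.1) elsewhere, with overlapping intervals. Common peaks showed the same order for score, with medians of 28.8 near a stretch and 12.0 elsewhere, and for MYC, with 7.58% near and 45.8% elsewhere. Of the 100 highest A498-only peaks 47 were near a stretch and 2 had a MYC peak, and of the 100 lowest 12 were near and 12 had a MYC peak. Divided by position and by presence in another list, the largest of the 4 groups, 325 peaks (51.0%), lay elsewhere, was in no other list, scored 5.58 at the median and was 136 bp wide at the median.

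**Figure D4:**
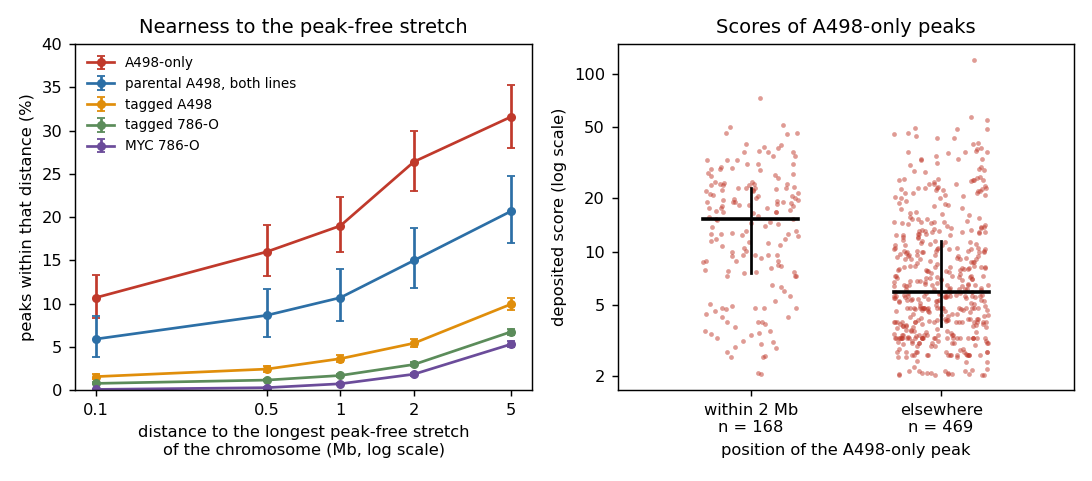
Left, share of peaks (%) within 0.1 to 5 Mb of the longest peak-free stretch of their chromosome, with 95% binomial intervals and the dense bins left out of both parental A498 classes. Right, deposited scores of A498-only peaks within 2 Mb of a stretch and elsewhere, with medians (15.3 and 5.96) and quartiles.

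Chromosomes held unequal numbers of A498-only peaks. Of the 623 on assembled chromosomes, chromosome 7 held 58 (9.31%, 7.15 to 11.9), 50 of them in no other list, against 4.76% of common and 9.81% of tagged A498 peaks. Chromosome 9 held 42 (6.74%), against 2.62% of common and 6.23% of tagged A498 peaks. Chromosome 1 held 52 (8.35%), against 17.1% of common and 8.99% of tagged A498 peaks. These 3 chromosomes, and chromosomes 21 and Y below, were chosen after the values were seen. Over all 24, the share of A498-only peaks was closer to that of tagged A498 peaks on 10 chromosomes and closer to that of common peaks on 14. Chromosome 21 held 30 (4.82%, 3.27 to 6.80), against 2.38% of common and 1.79% of tagged A498 peaks, and chromosome Y 28 (4.49%, 3.01 to 6.43), against 0.952% of common and 0.547% of tagged A498 peaks. On these chromosomes 1 bin held 18 of the 30 and 15 of the 28.

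A498-only peaks were partly crowded. They lay in 374 bins of 1 Mb, of which 280 held 1 and 22 held 5 or more, together 182 peaks (28.6%). The fullest were chromosome 21 from 10 to 11 Mb with 18 A498-only peaks, chromosome 16 from 33 to 34 Mb and chromosome Y from 10 to 11 Mb with 15 each, an unlocalized contig of chromosome 19 with 12, and chromosome 7 from 61 to 62 Mb with 10. None of these 5 bins held a MYC peak, and at their 70 A498-only peaks tagged A498 had 11 and tagged 786-O 16. Over all 637 A498-only peaks the counts were 77 for tagged A498 and 142 for tagged 786-O. Chromosome 21 from 10 to 11 Mb held 19 parental A498 peaks and 2 of parental 786-O, 10 of tagged A498 and 5 of tagged 786-O. Joined at gaps of up to 10 kb, 124 A498-only peaks (19.5%) formed 28 groups of 3 or more. Of these groups, 21 had no parental 786-O peak in their span, which the rule favours, since their members overlap none. The group with the most peaks was on chromosome Y at 10019229 to 10036171, with 13 peaks in 16.9 kb and scores of 4.71 to 43.3. On the contig of chromosome 19, 6 peaks lay in 3.83 kb with scores of 12.5 to 45.7, and 5 of them had a tagged A498 peak and none a tagged 786-O peak.

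Some members were close to the limits of the rule. The nearest gaps to a parental 786-O peak were 8 bp on chromosome 7 at 36429360 (score 7.14) and 9 bp on chromosome 10 at 33269800 (score 4.18), and the smallest overlaps left out were 6 bp on chromosome 7 at 5565240 (score 6.77) and 37 bp on chromosome 2 at 85134985 (score 4.66). Within 1 kb of a parental 786-O peak lay 52 A498-only peaks (8.16%) and within 100 kb 259 (40.7%), and the median gap was 186 kb. The median gap to the nearest tagged A498 peak was 44.7 kb and to the nearest tagged 786-O peak 19.4 kb. Bins just under the limit were chromosome 16 from 33 to 34 Mb, with 24 parental A498 and 9 parental 786-O peaks, chromosome 19 from 27 to 28 Mb, with 17 and 9, and chromosome 8 from 46 to 47 Mb, with 13 and 9. Bins just over it were chromosome 18 from 18 to 19 Mb, with 11 and 10, and chromosome 17 from 22 to 23 Mb, with 15 and 10.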

How the data were processed

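The submitters' processing notes name BWA, MACS2 and hg19, without roles, versions or settings. Deposited were 5-column BED tables with 1 list per library, called against 1 control library each, per the peak names. The deposited score was read as a −log10 of a p or q, since each of the 5 lists begins at about 2, as a threshold of 0.01 would give. Coordinates (unit other) are the authors' and are printed 1-based. The lists hold no read counts, so the depth at a peak is unknown; per the labels' protocols, libraries had 30 to 50 M reads on average, and chromatin fixed with formaldehyde was sheared to about 500 bp. The 4 input samples of the 9 were not analysed here.

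Overlap means 1 bp or more, and of several overlapping peaks the highest-scoring is given. Shares carry exact Clopper-Pearson 95% intervals and differences Newcombe intervals. Overlaps were tested on simulated data and differed from bedtools 2.31.1 at 0 of 6252 comparisons. Intervals were computed with scipy 1.17.1 and statsmodels 0.14.6 under Python 3.11.15, with tables in pandas 2.3.3 and figures in matplotlib 3.10.9. Peaks are named by position: the 10 highest, the 5 highest in each combination of lists (for peaks of tagged 786-O without tagged A498, with or without MYC), the 5 of best rank in each tagged list, the 5 fullest bins and those nearest the limits of the rule. Members, rules and lists were chosen with earlier results of these data known. Gene annotation and sequence of hg19 were not used here.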

Additional observations from a re-analysis of the deposited data

How the results depend on the processing

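Of 48 values of the 4 shares under 12 alternatives, 28 stayed within the 95% interval of the reported one and 20 left it. With 50% reciprocal overlap the shares were 5.34% at tagged A498, 8.32% at tagged 786-O, 0.942% at MYC and 87.1% at none. Of the 34 peaks then at tagged A498, 73.5% (55.6 to 87.1) scored above the median, against 57.1% as reported. Of the 53 then at tagged 786-O, 84.9% (72.4 to 93.3) did so, against 52.8% as reported. Midpoints within 200 bp gave 17.7% at tagged 786-O and 6.28% at MYC. With members chosen by 50% reciprocal overlap with parental 786-O, the shares in the same order were 21.9%, 33.0%, 16.7% and 61.0%. Keeping the upper 50% by score both of the members and of the tagged and MYC lists left 318 members, with 13.2% at tagged 786-O, 3.14% at MYC and 78.3% at none. Lists of equal length gave 10.2% at tagged 786-O, 5.49% at MYC and 80.4% at none. With no bin left out, MYC had 7.95%. The last 2 alternatives were added after seeing the data: peaks up to 150 bp wide left 375 members, with 8.0% at tagged A498 and 77.6% at none, and leaving out peaks within 2 Mb of a peak-free stretch gave 13.9% at MYC. Stricter overlap with the tagged and MYC lists, and shortening these lists, lower the shares at them by construction; for the remaining changes the cause was not tested. With no bin left out, chosen after seeing the data for this value, the A498-only minus common share near a peak-free stretch was 1.54 points, against 11.3 as reported. The A498-only share minus the common share stayed negative in all 12 alternatives, from -53.9 to -31.3 points for tagged A498, -68.0 to -31.3 for tagged 786-O and -38.4 to -5.66 for MYC. Tagged 786-O stayed above tagged A498 in 11 of 12, the exception being lists of equal length. No paired analysis was possible because each group was 1 library.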

Other observations

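Of the 28 groups of A498-only peaks, 2 were on a contig, which has no stretch to measure from, and 8 of those on chromosomes lay over 2 Mb from the peak-free stretch. On chromosome 11 at 1753021 to 1758159, 6 A498-only peaks with scores of 4.44 to 15.2 lay in 5.14 kb. Of these, 1 had a tagged A498 peak and 3 a tagged 786-O peak. Parental 786-O had no peak in the span, which the rule favours. On chromosome 17 at 45212950 to 45214638, 3 peaks scored 12.9 to 25.7 in 1.69 kb, with 1 at a tagged A498 peak and none at tagged 786-O. On chromosome 2 at 85773027 to 85773793, 3 peaks with scores of 3.61 to 6.19 lay in 0.767 kb, and no other list had a peak there. On chromosome 8 at 62623652 to 62627147, 3 peaks were spaced 1618 and 1642 bp apart, and 1 of them had a peak in all of tagged A498, tagged 786-O and MYC. On chromosome 12, 2 groups near 104680816 and 104749566 held 4 and 3 weak peaks with scores of 2.05 to 5.35.

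The mitochondrial genome held 19 parental A498 peaks and no A498-only peak. Parental 786-O had 2 peaks there that together covered 16361 bp, so each A498 peak overlapped one of them.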
